A study of Mus musculus with 162 samples.

Results

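In perigonadal fat, edgeR called no gene between mice fasted through the day and fed mice when all 12 libraries were kept, while limma with sample quality weights called 1203 and DESeq2 3, and leaving out 1 fed library changed the count by much. Irs2, of insulin signalling, was lower in every fasted library than in any fed one, as were 0.183% of all genes. Acacb, Fads1 and Mlxipl, of fat synthesis, were lower at the median. All 25 listed nuclear-encoded genes of the respiratory chain leaned higher by a small step. Of these, 1 was higher at an unadjusted p under 0.05 in edgeR, against 4.55% of all genes. The 11 mitochondrially encoded ones leaned the same way, but only 6 of them did with a trend on transcript length taken out. Ulk2, a kinase of autophagy, was higher in every fasted library than in any fed one, as were 0.183% of all genes. Lep, Adipoq, Pnpla2 and Lipe showed no difference that edgeR could tell from 0. Part of the pattern ran along transcript length, which is described before the genes.

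The comparison set perigonadal white adipose tissue (pgWAT) of mice fasted through the day, for 8 h or 12 h, against pgWAT of fed mice, with food at hand until collection (0 h) or removed 2 h before it. The libraries were chosen by their organ and fasting duration as labelled, which gave 12 of the 162 libraries of the series, 6 in each group and 3 at each time point. The series profiled 9 organs at 6 fasting durations by mRNA sequencing, and the question asked of pgWAT was how its transcripts stood after a fast of part of a day. All mice were C57Bl/6J males, 8 to 9 weeks old, kept in groups under 12 h of light and 12 h of dark with free access to water. Fed mice of 0 h ate ad libitum, the food of 2 h mice was taken away late in the light phase, and that of 8 h and 12 h mice in its middle and near its start. All were killed shortly after lights off, so that the 4 durations shared a time of collection and differed in when the fast began. Each library came from a different mouse.

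White fat stores triglyceride when food is plentiful and releases fatty acids and glycerol by lipolysis when it is scarce. Insulin drives glucose uptake and the making of new fatty acids in adipocytes and restrains lipolysis, and its level falls as a fast goes on. Perigonadal fat also holds fibroblasts, endothelial cells, mesothelium and immune cells, and in males it lies against the epididymis.

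Depth differed between the groups. The fed libraries held 10.4, 12.4 and 16.8 M counts at 0 h and 19.8, 9.31 and 11.7 M at 2 h. The fasted libraries held 8.01, 6.50 and 8.39 M counts at 8 h and 6.46, 7.96 and 8.07 M at 12 h. The groups did not overlap in depth, and the exact permutation test gave p = 0.00216, the smallest that 924 permutations of 6 against 6 allow (0.0173 adjusted over 8 library measures). Genes with at least 1 count numbered 20641 to 22132 in fed and 19125 to 21019 in fasted libraries (exact permutation p = 0.00649, adjusted 0.0260). A level of 3 counts equalled 0.151 CPM (counts per M) in the deepest and 0.464 CPM in the shallowest library.

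The tissue label was checked against its markers, which were abundant in every library. The 10 adipocyte markers summed to between 58903 and 88321 CPM in fed libraries and between 68204 and 86951 CPM in fasted ones, with carbonic anhydrase 3 (Car3) the most abundant, and none of the 10 was at 0 throughout. Over 24 lists of cell type markers, the smallest exact permutation p for the summed level was 0.416 after adjustment. Endothelial markers, 9 of 9 measured and led by Pecam1, summed to 448 to 910 CPM in fed and 304 to 697 CPM in fasted libraries. Their median log2FC was -0.44, and 3 of 9 were lower at an unadjusted p under 0.05 in edgeR, against 6.95% of all genes. Smooth muscle and pericyte markers, 8 of 8 measured and led by Rgs5, had a median log2FC of -1.51, with 6 of 8 lower at an unadjusted p under 0.05 beside the same 6.95%, and the smallest exact permutation p of all lists (0.0325, adjusted 0.416). Their highest sum lay in 2 h replicate 2. In 2 h replicate 1 the adipocyte sum was the highest of the fed group, and the endothelial sum, with that of fibroblast markers at 14037 CPM, the lowest. The part that the mix of cells has in the results was not tested. Here and for every gene that follows, fewer cells of a type and less RNA per cell cannot be told apart in such bulk samples.

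Several libraries stood apart. The 2 h replicate 2 library held 3070 CPM of epididymis markers, nearly all Crisp1 at 2896 CPM and Defb42 at 170 CPM, against 1.69 to 32.8 CPM in the other fed and 2.32 to 23.4 CPM in the fasted libraries. It also held 5050 CPM of smooth muscle and pericyte markers, with Myh11 at 1841 CPM, against 523 to 727 CPM in the other fed and 361 to 695 CPM in the fasted libraries. The 0 h replicate 1 library carried high immediate early genes, and 0 h replicate 3 the highest fatty acid synthase (Fasn) and the lowest Nr1d1. The library of 2 h replicate 1 was the deepest, had the fewest genes with a count among the fed, and was the only fed library sequenced on lane L007, with 8 h replicate 1 the only fasted one there. The other fed libraries came from lane L005, as did 8 h replicates 2 and 3 and 12 h replicate 1, while 12 h replicates 2 and 3 came from lane L006. The column name of 12 h replicate 3 begins with another number series than those of all the other libraries compared, and its meaning is not given.

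Along the main axis of variation, 2 h replicate 1 lay at the far end of the fasted libraries. The first principal component took 38.4% of the variance and the second 22.5%. The score on the first was 45.3 in 2 h replicate 1 and between -49.3 and -4.77 in the other 5 fed libraries, against -21.4 to 37.8 in the fasted. The groups overlapped (exact permutation p = 0.0974, adjusted 0.216). A second measure was the length trend, the slope of a library's log2 levels, relative to the mean of the 12, on the log2 of transcript length. It was 0.122, 0.0444 and 0.140 at 0 h, -0.183, 0.0712 and 0.107 at 2 h, -0.164, -0.0643 and 0.0231 at 8 h, and -0.0618, 0.0187 and -0.0541 at 12 h. Over all 12 libraries the groups overlapped (exact permutation p = 0.108, adjusted 0.216), and without 2 h replicate 1 they did not.

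**Figure D1:**
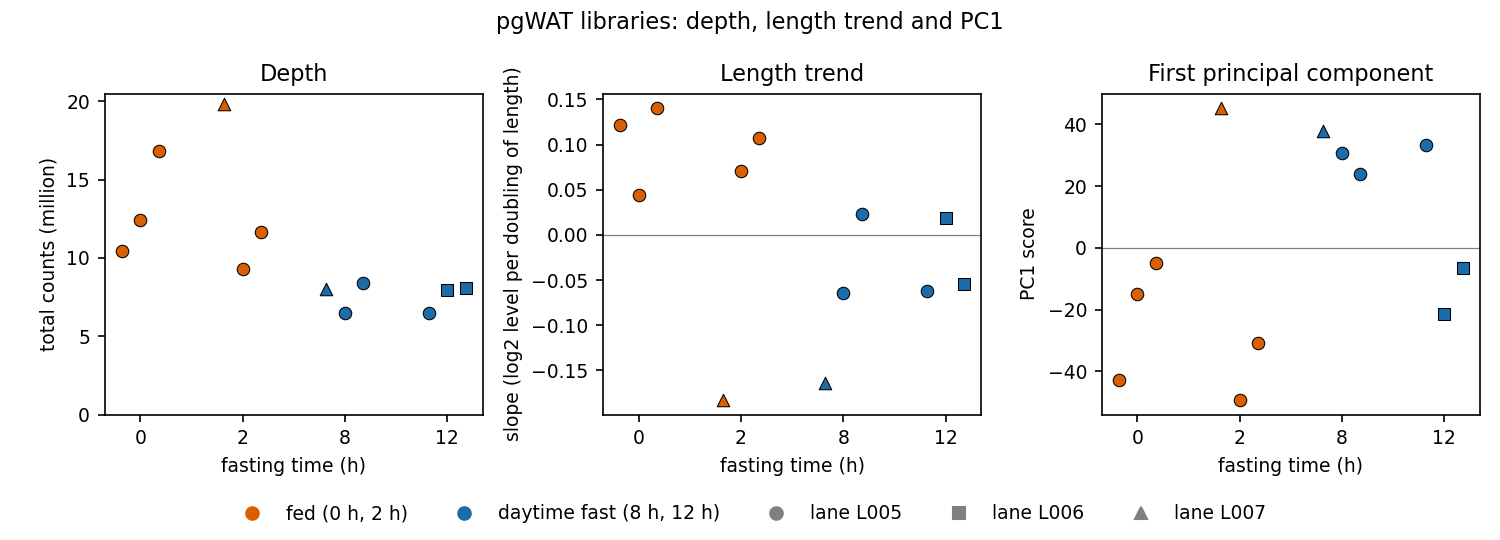
Depth in M counts, length trend as slope of log2 level per doubling of transcript length, and score on the first principal component for each of the 12 pgWAT libraries, by fasting time in h, with color for the group and shape for the sequencing lane. The 2 h replicate 1 library, a fed triangle, is the deepest at 19.8 M counts and lies beyond the fasted end in the other panels.

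No gene passed in edgeR across the 12 libraries. Of 15862 genes tested with edgeR, 0 (0%) had an adjusted p under 0.05, and the smallest adjusted p was 0.423. At an unadjusted p under 0.05, 721 genes were higher (4.55%) and 1102 lower (6.95%) in the daytime fast, 1823 in all. In 29 genes (0.183%) all 6 fasted libraries lay above all 6 fed ones, and in 29 (0.183%) below. The median log2 fold change (log2FC, fasted against fed) over all genes was -0.01, 7659 of the 15862 (48.3%) had a positive one, and the median standard error (SE) was 0.19. Other tools gave other counts: DESeq2 called 3 genes (1982 at an unadjusted p under 0.05), and limma with sample quality weights called 1203, of which 799 were higher and 404 lower (4761 at an unadjusted p under 0.05). The 3 genes of DESeq2, named here after their values were seen, were the nuclear corepressor Rere (log2FC -0.47 ± 0.09, SE), the receptor Notch1 (-0.84 ± 0.19) and the actin-binding protein Coro6 (-1.26 ± 0.27), all lower in the fast.

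The count of 0 changed with 2 h replicate 1. With this library left out, edgeR called 2209 of 15717 genes, 1243 higher (7.91%) and 966 lower (6.15%), and 80 of them higher and 89 lower by more than 2-fold. Leaving out any other of the 12 gave 0. With 0 h alone as fed, which also leaves this library out, the count was 0 again (smallest adjusted p 0.0907, 3618 at an unadjusted p under 0.05). In the 11 libraries DESeq2 called 3231 genes and limma with quality weights 2414. Leaving out each library in turn was planned, while this library was singled out after its values were seen. No label tells it apart from the other fed libraries but its lane, so the counts over 11 libraries are given beside the 0 and not in its place. Genes said in what follows to have passed in the 11 libraries are named after their values were seen, except where the rule for named genes had chosen them. Where no tool is named, passed refers to edgeR, and genes that passed with length offsets did so with 2 h replicate 1 left out as well. Beside the genes that passed in each gene list stand the shares of all genes, 7.91% higher and 6.15% lower in the 11 libraries. With length offsets these shares were 3.72% and 1.88%.

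The differences were graded by transcript length. With the genes put in 4 bins by length, the bin of the shortest transcripts had a median exon length of 1380 bases. In it 260 genes were higher and 53 lower at an unadjusted p under 0.05 over the 12 libraries, and the median log2FC was 0.18. In the bin of the longest, with a median of 8728 bases, 96 were higher and 526 lower, and the median was -0.16. The grading was steeper in the 11 libraries, where 706 genes passed as higher and 20 as lower in the shortest bin, and 77 as higher and 564 as lower in the longest. When a smooth trend on length was taken out of each library, a setting joined to the left-out 2 h replicate 1 after the data were seen, 880 genes passed, 585 higher (3.72%) and 295 lower (1.88%). Of the 2209 genes, 706 (32.0%) were among these 880, all 706 with the same sign. These offsets take the trend with length out by construction. Whether the length trend comes from the fast or from the libraries was not tested, and the values with offsets stand beside those without.

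Lane and depth were followed in the same way, the lane L007 and thinned settings, and length offsets on lane L005 alone, after the data were seen. Among the lane L005 libraries alone, 5 fed and 3 fasted, 918 genes passed, and 240 with length offsets as well. Without both lane L007 libraries, 790 passed. With lane as a covariate, which keeps all 12 libraries, 0 passed, with 3394 at an unadjusted p under 0.05. When every library was thinned to the smallest total, 0 passed over the 12 libraries (1852 at an unadjusted p under 0.05), and 2085 with 2 h replicate 1 left out as well. Depth and group could otherwise not be told apart, as no fasted library reached the depth of the shallowest fed one.

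Among the genes lower in the fast by more than 2-fold with the smallest p, Coro6 was also among the 3 called by DESeq2. Its level was 7.60 to 24.5 (median 16.9) normalized CPM in fed and 4.72 to 9.27 (median 7.19) in fasted libraries. The groups met only through 2 h replicate 1, at 7.60. The log2FC was -1.25 ± 0.26 (SE, 95% interval -1.81 to -0.69, adjusted p = 0.423), and in the 11 libraries it was -1.42 with an adjusted p of 0.0210, within a range of 1.01e-06 to 0.902 over 34 alternative settings. Gvin1, a very large interferon-inducible GTPase, stood at 2.19 to 9.45 (median 4.98) in fed and 0.626 to 2.29 (median 1.01) in fasted libraries, which overlapped by a narrow margin, with a log2FC of -2.13 ± 0.42 (interval -3.02 to -1.24). Aoc2, a copper amine oxidase, stood at 2.79 to 4.47 (median 3.92) against 1.21 to 2.93 (median 1.76) (-1.02 ± 0.25), again with 2 h replicate 1 the lowest fed library. Coro6, Gvin1 and Aoc2 passed in the 11 libraries with and without length offsets.

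The rest of the lower genes were mostly of low level. Prag1, a pseudokinase, stood at 4.86 to 16.97 (median 12.5) against 2.92 to 8.69 (median 5.47) (-1.05 ± 0.30), and the kinase Cdk18 at 1.62 to 12.7 (median 4.39) against 0.978 to 2.29 (median 1.78) (-1.53 ± 0.43). In both the groups were apart once 2 h replicate 1 was left out. Type VII collagen, Col7a1, was apart over all 12 libraries, as were 0.183% of all genes as lower. It stood at 0.838 to 10.1 (median 1.43) against 0.163 to 0.782 (median 0.556) (-2.39 ± 0.68). However, its highest fed value was that of 2 h replicate 2, the library with epididymis and smooth muscle markers. With that library left out the log2FC of Col7a1 was -1.28. Epidermal growth factor, Egf, stood at 1.73 to 13.7 (median 3.61) against 1.45 to 2.12 (median 1.68) (-1.52 ± 0.44), and the cation channel Trpm3 at 0.950 to 2.99 (median 2.02) against 0.626 to 1.34 (median 0.917) (-1.18 ± 0.34). The highest Cdk18 and Egf were also those of 2 h replicate 2, without which their log2FCs were -1.04 and -0.89. Prrt1 (-1.07 ± 0.30), Sdk2 (-1.21 ± 0.35) and the dynein assembly factor Dnaaf3 (-1.38 ± 0.40) stood lower too, with groups that overlapped. All of these 8 genes passed in the 11 libraries, and all but Col7a1, Sdk2 and Trpm3 did so with length offsets as well.

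On the higher side, the groups were apart in a pair of genes of very low level, as in 0.183% of all genes. Gdf9, a growth factor known from the oocyte, stood at 0.398 to 1.01 (median 0.651) normalized CPM in fed and 1.21 to 2.35 (median 1.38) in fasted libraries, and the X-linked Xlr3a at 0.199 to 1.23 (median 0.804) against 1.33 to 3.91 (median 2.03). Their log2FCs were 1.23 ± 0.36 and 1.39 ± 0.41 (SE), with an adjusted p of 0.423. Vgll3, a transcription cofactor expressed in fat precursors, had more counts behind it, at 13.5 to 27.99 (median 19.1) in fed and 17.8 to 92.3 (median 54.8) in fasted libraries. The high values were those of the 3 libraries of 8 h and of 12 h replicate 3, while 12 h replicates 1 and 2 lay within the fed range. Its log2FC was 1.40 ± 0.34 (interval 0.67 to 2.14), and in the 11 libraries 1.53 with an adjusted p of 0.0320, within a range of 0.000424 to 0.902 over 34 alternatives. Vgll3 was 1.91 at 8 h against fed and 0.62 at 12 h against fed on the log2 scale. Mageb18 (1.24 ± 0.36), the potassium channel Kcnj14 (1.24 ± 0.43) and the endothelial proteoglycan Esm1 (1.13 ± 0.37) were higher as well, with overlapping groups, and passed in the 11 libraries.

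Obp1a, Obp1b, Scgb1c1 and Bpifb3, known from nasal glands and olfactory tissue, were also among the higher genes named by the rule. No list of such genes was tested. The odorant-binding proteins Obp1a and Obp1b stood at 0 to 2.57 (median 0.0497) and 0 to 1.23 (median 0.0440) normalized CPM in fed libraries, and at 0 to 59.6 (median 5.06) and 0 to 26.4 (median 3.84) in fasted ones. Scgb1c1 reached 5.97 and Bpifb3 2.44 in fasted libraries. Their high values came from 8 h replicate 1 and 12 h replicates 2 and 3, while the rest of the fasted libraries were at 0 and the fed group near it, apart from 2 h replicate 1. All of the libraries with more than traces came from lanes L006 and L007, and those of lane L005 held next to none. In these genes, with fed medians at or under the level of 3 counts, the fitted log2FC is no measure of size and is not given. The glutamate transporter Slc1a2 (0.199 to 1.17 (median 0.479) against 0 to 19.8 (median 1.31)) was likewise carried by a few libraries, the highest of them 8 h replicate 1. In that library the 10 markers of neurons and glia, all measured and led by Mbp, summed to 144.6 CPM, against 29.4 to 62.1 CPM in the other fasted and 35.8 to 58.03 CPM in the fed libraries. Other organs of the series include olfactory bulb and brain, and whether RNA of another organ is present was not tested.

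**Figure D2:**
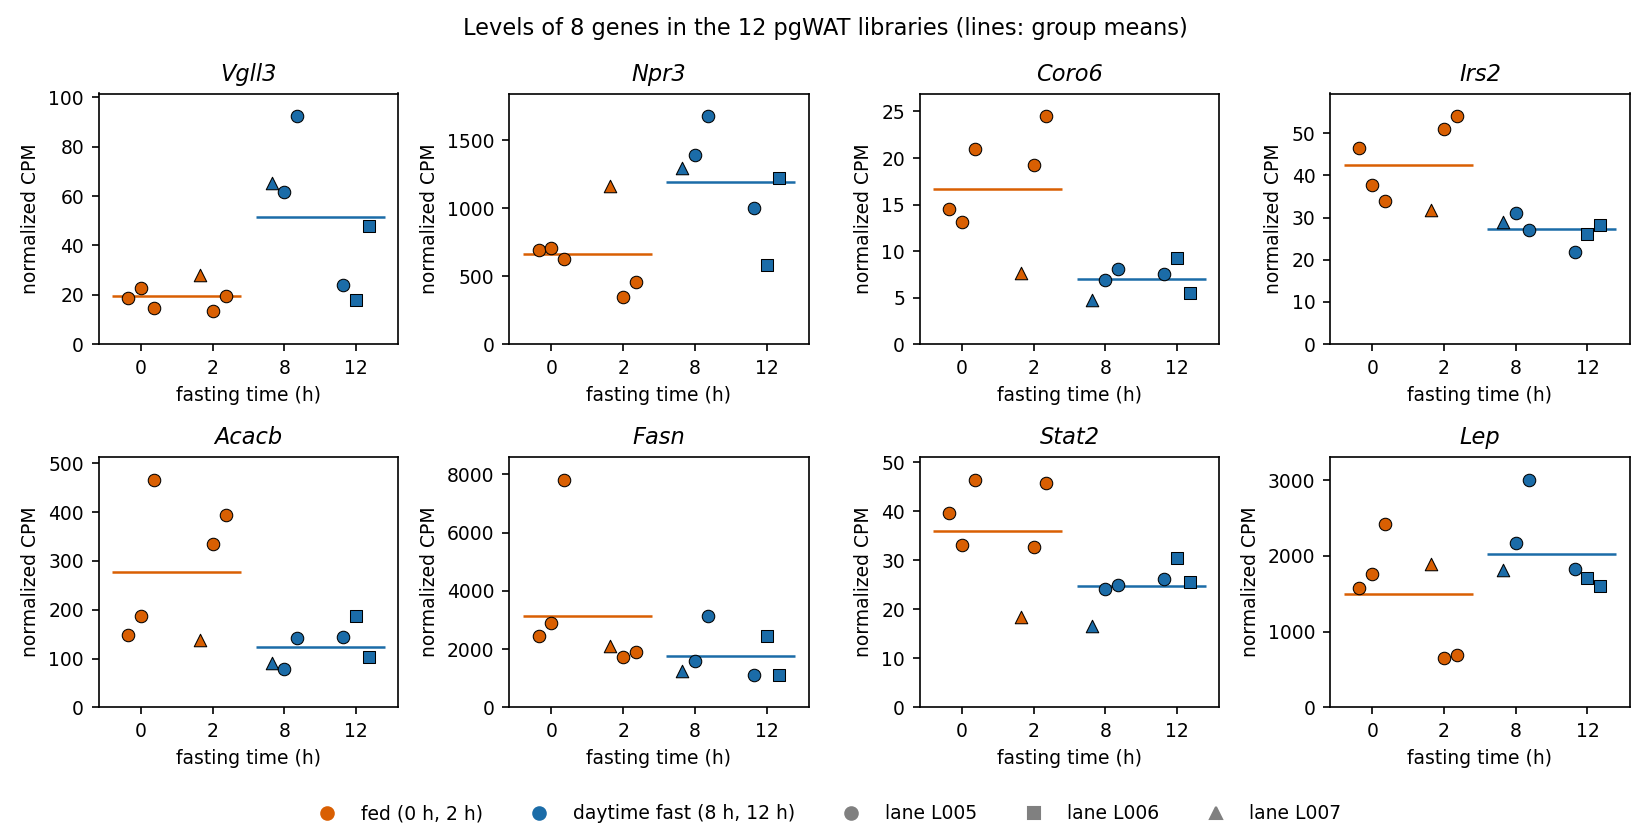
Normalized CPM of 8 genes in each of the 12 pgWAT libraries by fasting time in h, with color for the group, shape for the sequencing lane and a line at each group mean. Irs2 is the gene shown whose groups do not overlap, and in Coro6, Stat2 and Acacb the fed triangle, 2 h replicate 1, lies below the other fed libraries.

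De novo lipogenesis, the making of fatty acids from acetyl-CoA, leaned lower in the fast. Of its 21 genes 20 had a negative log2FC, with a median of -0.42 against -0.01 over all genes tested, and 6 were lower at an unadjusted p under 0.05, against 6.95% of all genes. None passed in edgeR over the 12 libraries, while limma with sample quality weights called Fads1 and Mlxipl. Acacb, the acetyl-CoA carboxylase of the mitochondrial surface, stood at 138.4 to 467 (median 261) normalized CPM in fed and 78.8 to 186.8 (median 122.98) in fasted libraries. Those groups overlapped, and 4 fed libraries lay above all fasted ones. The log2FC was -1.16 ± 0.32 (SE, interval -1.84 to -0.48), and in the 11 libraries, without 2 h replicate 1, it was -1.31 with an adjusted p of 0.0283, within 0.000334 to 0.902 over 34 alternatives. The fatty acid desaturase Fads1 stood at 112.97 to 230.2 (median 140.8) against 79.0 to 133.5 (median 91.6) (-0.63 ± 0.18), and Mlxipl, the carbohydrate-sensing transcription factor ChREBP, at 52.1 to 262 (median 135.8) against 50.7 to 118.6 (median 68.8) (-0.86 ± 0.33). Acacb, Fads1 and Mlxipl passed in the 11 libraries, against 6.15% of all genes as lower. Acacb and Fads1 did so with length offsets too, against 1.88%. Acaca, the cytosolic carboxylase, was -0.65 ± 0.22.

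Fasn itself showed how wide the spread was. It stood at 1715 to 7825 (median 2287) normalized CPM in fed and 1108 to 3126 (median 1408) in fasted libraries, with a log2FC of -0.83 ± 0.39 (SE, interval -1.67 to 0.01, adjusted p = 0.438). The highest value was that of 0 h replicate 3, and without that library the log2FC of Fasn was -0.32. Without 0 h replicate 3 the list's median was -0.20. The direction of the list held under each scaling tried. Its exons are long, with a median of 5279 bases against 4026 over all genes tested, and with length offsets and 2 h replicate 1 left out the list's median was -0.35.

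Insulin signalling held a gene whose groups were apart. Irs2, the insulin receptor substrate, on chromosome 8 from 10984681 to 11008458 of GRCm38, stood at 31.7 to 53.98 (median 42.1) normalized CPM in fed and 21.8 to 31.1 (median 27.7) in fasted libraries. Every fasted library lay below every fed one, with 2 h replicate 1 at the lower edge of the fed group. The same held for 29 of all 15862 genes (0.183%), and for no other gene of this list. The log2FC was -0.64 ± 0.15 (SE, interval -0.95 to -0.32, adjusted p = 0.423). In the 11 libraries it was -0.72 with an adjusted p of 0.0243, within 0.000308 to 0.902 over 34 alternatives, and its sign was the same in all of them. Igf1r, the receptor of insulin-like growth factor, stood at 9.72 to 29.03 (median 21.5) against 7.42 to 18.7 (median 10.6) (-0.78 ± 0.28), and the transcriptional repressor Bcl6 at 20.3 to 198 (median 101.9) against 20.4 to 87.1 (median 38.5) (-1.23 ± 0.52). Ccng2, a target of FoxO factors, was 0.24 ± 0.10. Over the list of insulin signalling and FoxO targets 16 of 23 genes had a negative log2FC with a median of -0.12, which was -0.03 without 0 h replicate 3, with 11 of 23 positive, and -0.05 without 2 h replicate 2. Irs2 and Igf1r passed in the 11 libraries, and with length offsets Irs2 passed as lower and Sesn3 as higher. The list's median was -0.04 with length offsets over the 12 libraries, -0.20 without 2 h replicate 1, and 0.02 with both choices.

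Genes of lipolysis and the lipid droplet stood in both directions. Of 21 tested, 9 had a positive and 12 a negative log2FC, with a median of -0.04, which turned to 0.04 with lane as a covariate. The lipases themselves were close to level: Pnpla2, which starts triglyceride breakdown, was 0.14 ± 0.15 (interval -0.17 to 0.46), and Lipe, hormone-sensitive lipase, -0.04 ± 0.13 (interval -0.31 to 0.24). The sign for Lipe turned under several alternative settings. Plin4, a lipid droplet coat protein, stood at 2540.0 to 4025 (median 3292) against 2184 to 3071 (median 2426) normalized CPM (-0.38 ± 0.14) and Plin5, a coat protein of oxidative tissues, at 17.3 to 23.8 (median 19.9) against 8.13 to 22.99 (median 13.3) (-0.46 ± 0.21). Adora1, an adenosine receptor that restrains lipolysis, was -0.29 ± 0.11, and Hilpda, an inhibitor of Pnpla2, 0.52 ± 0.24. Plin4 and Hilpda passed in the 11 libraries without 2 h replicate 1, in opposite directions, and neither did with length offsets.

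Fat uptake and triglyceride synthesis showed small differences. Of 12 genes of lipoprotein lipase regulation and fat uptake 7 had a positive log2FC, with a median of 0.07. The transporter Cd36 and the carrier Fabp4 belong here, Cd36 at 3467 to 5776 (median 4642) in fed and 4981 to 6446 (median 6109.9) normalized CPM in fasted libraries (0.31 ± 0.14). Lrp1, an endocytic receptor, was -0.47 ± 0.19, and the fatty acid transporter Slc27a1 -0.41 ± 0.18. In the 11 libraries Fabp4 passed as higher and Lrp1 as lower, and with length offsets Fabp4 and Vldlr as higher. Without 0 h replicate 1 the list's median was -0.03. Of 15 genes of triglyceride synthesis 11 had a negative log2FC, with a median of -0.06, which turned to 0.04 in the lane L005 libraries alone. The phosphatidate phosphatases Lpin1 (-0.47 ± 0.21) and Lpin3 (-0.52 ± 0.20) had the smallest p there, and none passed in edgeR with or without 2 h replicate 1. Without that library DESeq2 and limma called Lpin1 as lower, and in the lane L005 libraries alone 1 gene of the list passed as higher.

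Genes that define the adipocyte stood near the share of all genes, and secreted factors somewhat above it. Adipocyte identity had 10 of 18 genes with a positive log2FC, against 48.3% of all genes, and a median of 0.06, which turned just below 0 without 2 h replicate 2. Car3 stood at 16822 to 29282 (median 23066) in fed and 25363 to 31865 (median 29357) normalized CPM in fasted libraries (0.28 ± 0.15). Fabp4 was the gene of this list that passed in the 11 libraries, without 2 h replicate 1, and did so with length offsets as well. Adipokines and secreted factors had 14 of 20 positive and a median of 0.22, which was 0.10 with length offsets over the 12 libraries. Npr3, the clearance receptor for natriuretic peptides, was the member with the smallest p, at 348 to 1167 (median 659) against 582 to 1677 (median 1258) (0.84 ± 0.28, SE, interval 0.24 to 1.45). The highest fed value of Npr3 was that of 2 h replicate 1, and in the 11 libraries its log2FC was 1.07 with an adjusted p of 0.0265, within 0.000494 to 0.902 over 34 alternatives. Retn, Rbp4 and Rarres2 passed beside Npr3 in the 11 libraries, and Npr3 alone with length offsets.

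The adipokines most tied to fasting did not stand out in edgeR. Lep, the satiety hormone leptin, stood at 654 to 2428 (median 1667) normalized CPM in fed and 1597 to 3008 (median 1819.6) in fasted libraries, with the low fed values in 2 h replicates 2 and 3. Its log2FC was 0.43 ± 0.30 (SE, interval -0.21 to 1.07, adjusted p = 0.532), so the interval held values on either side of 0. Adipoq, adiponectin, stood at 3691 to 6999 (median 4086) against 4247 to 6345 (median 5114) (0.21 ± 0.18, interval -0.17 to 0.59), and DESeq2 called it as higher with 2 h replicate 1 left out. The chemokine Ccl2 ranged widely in the fasted group, at 8.57 to 12.7 (median 9.27) against 3.29 to 41.3 (median 19.8) (1.12 ± 0.45). Nampt, which makes a precursor of NAD, was 0.22 ± 0.11.

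Mitochondrial lists leaned upward with most uniformity. All 25 nuclear-encoded genes of oxidative phosphorylation had a positive log2FC, between 0.10 and 0.48 with a median of 0.30 against -0.01 over all genes tested, and 1 was higher at an unadjusted p under 0.05, against 4.55% of all genes. Cox7c, of cytochrome c oxidase, stood at 10.5 to 20.1 (median 13.3) against 15.5 to 26.6 (median 18.2) normalized CPM (0.43 ± 0.18), and Atp5c1, of ATP synthase, at 419 to 805 (median 473) against 574 to 849.9 (median 652) (0.36 ± 0.17). In both genes the highest fed library was 2 h replicate 1. Without it 19 of the 25 passed, all higher, against 7.91% of all genes in that setting and 706 of 3854 in the bin of the shortest transcripts, and the median was 0.52. With length offsets as well 5 passed (Atp5o, Ndufb8, Cox5a, Cox6c and Ndufs1) against 3.72% of all genes as higher, all 25 still had a positive log2FC and the median was 0.30. With length offsets over the 12 libraries the median was 0.20, and 0 of the 25 had an unadjusted p under 0.05. These transcripts are short, with a median of 2140 bases against 4026.

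Mitochondrially encoded transcripts were less steady. All 11 had a positive log2FC over the 12 libraries, with a median of 0.19. The complex I subunit mt-Nd6 stood at 158 to 249 (median 192.6) against 232.5 to 341 (median 261) (0.50 ± 0.14), and mt-Nd3 at 0.994 to 2.42 (median 1.82) against 1.93 to 6.48 (median 3.59) (1.04 ± 0.31). Both passed in the 11 libraries without 2 h replicate 1. With length offsets as well none passed and the median was -0.12, and with length offsets over the 12 libraries it was 0.00. Mitochondrial transcripts took 3.32% to 4.99% of the counts in fed and 3.48% to 5.96% in fasted libraries.

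Amino acid oxidation leaned higher, while fatty acid oxidation stood near level. In catabolism of branched-chain amino acids, 22 of 24 genes had a positive log2FC, against 48.3% of all genes, with a median of 0.17. At an unadjusted p under 0.05 in edgeR, 3 of the 24 were higher, against 4.55% of all genes. Auh, a hydratase of leucine breakdown, stood at 67.7 to 107 (median 79.0) against 85.2 to 110.99 (median 100.1) normalized CPM (0.28 ± 0.12), and Mut, methylmalonyl-CoA mutase, at 138.5 to 213 (median 158) against 167.6 to 241 (median 198) (0.29 ± 0.13). Auh, Hibadh, Acat1 and Oxct1 passed as higher in the 11 libraries without 2 h replicate 1, against 7.91% of all genes. With length offsets Auh, Hibadh and Hibch did, against 3.72%. Without 2 h replicate 1 the median was 0.25 with and without length offsets, and with length offsets over the 12 libraries it was 0.17. These transcripts are near the common length, with a median of 4022 bases. Fatty acid oxidation and PPAR targets had 13 of 24 positive with a median of 0.01, whose sign turned with DESeq2, and without 0 h replicate 1 or 2 h replicate 2. At an unadjusted p under 0.05 in edgeR, 1 of these 24 was higher, against 4.55% of all genes. Acadl (0.32 ± 0.14) and Acadm (0.27 ± 0.14), acyl-CoA dehydrogenases, had the smallest p. Decr1, Acaa2, Hadhb and Acadl passed as higher in the 11 libraries, and Decr1 and Hadhb with length offsets, beside the same 7.91% and 3.72% of all genes. Pdk4, the kinase that turns off pyruvate dehydrogenase and a known fasting gene elsewhere, stood at 28.2 to 54.8 (median 35.7) against 15.6 to 40.1 (median 29.9) (-0.32 ± 0.21, interval -0.78 to 0.14).

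Glucose and glycogen genes divided. Of 25 genes of glucose uptake and glycolysis 12 had a positive log2FC, and the sign of the median turned with scaling. Tpi1, triosephosphate isomerase, stood at 387 to 929 (median 457) against 619 to 1039.5 (median 707) normalized CPM (0.50 ± 0.21), and its groups were apart without 2 h replicate 1, the highest fed library. Pgam1, phosphoglycerate mutase, was 0.29 ± 0.13. Tpi1 and Pgk1 passed in the 11 libraries and Tpi1 with length offsets. In glycogen metabolism, 10 of 15 had a positive log2FC with a median of 0.16, which was 0.10 without 2 h replicate 2. Gys1, glycogen synthase, was lower at 143.6 to 210.2 (median 162) against 112.5 to 165.6 (median 133.2) (-0.32 ± 0.13), and Ugp2, which makes its substrate, higher (0.32 ± 0.13). Gyg and Ugp2 passed in the 11 libraries and none with length offsets.

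Cytosolic ribosomal proteins stood in both directions, with more of them higher. Of 30 genes 21 had a positive log2FC, between -0.41 and 0.56 with a median of 0.22. Rpl32 stood at 48.7 to 133.2 (median 57.3) against 79.4 to 134.6 (median 101.4) normalized CPM (0.56 ± 0.23), and Rps4x at 52.1 to 103.3 (median 56.5) against 62.1 to 108 (median 90.8) (0.42 ± 0.19). The highest fed value of each was that of 2 h replicate 1. Without it 12 of the 30 passed, all higher, against 7.91% of all genes in that setting and 706 of 3854 in the bin of the shortest transcripts, and the median was 0.44. With length offsets as well Rps19, Rpl32 and Rpsa passed, against 3.72% of all genes higher, and the median was 0.25. The list's median was 0.15 with length offsets over the 12 libraries, and also 0.15 without 0 h replicate 3 or without 0 h replicate 1. Counts of all ribosomal protein genes took 0.394% to 0.895% of the total in fed and 0.545% to 0.856% in fasted libraries.

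Autophagy genes included another gene whose groups were apart. Ulk2, a kinase that starts autophagy, on chromosome 11 from 61775649 to 61855073, stood at 88.4 to 110.1 (median 99.8) normalized CPM in fed and 111.02 to 137.8 (median 120.9) in fasted libraries. Every fasted library lay above every fed one, by a small step. The same held for 29 of all 15862 genes (0.183%), and for no other gene of this list. The log2FC was 0.32 ± 0.09 (SE, interval 0.12 to 0.52, adjusted p = 0.423), and in the 11 libraries 0.33 with an adjusted p of 0.0354, within 0.00502 to 0.902 over 34 alternatives. Its relative Ulk1 stood the other way, at 28.4 to 51.6 (median 39.3) against 26.9 to 36.4 (median 27.7) (-0.39 ± 0.15). Over autophagy and lysosome 15 of 21 genes had a positive log2FC with a median of 0.13. In the 11 libraries, without 2 h replicate 1, 8 passed as higher, among them Map1lc3a, Gabarap, Bnip3 and the lysosomal proteases Ctsl and Ctsd, and Ulk1 as lower, against 7.91% of all genes higher and 6.15% lower in that setting. With length offsets as well Ulk2, Ctsl and Atg12 passed, against 3.72% of all genes higher, and the median was 0.28, while with length offsets over the 12 libraries it was 0.15.

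Interferon-stimulated genes leaned lower. Of 22 tested, 17 had a negative log2FC with a median of -0.26 against -0.01 over all genes, and 7 were lower at an unadjusted p under 0.05, against 6.95% of all genes. Ifit2, which binds viral RNA complexes, was apart at 12.03 to 22.7 (median 15.2) against 10.01 to 11.96 (median 11.7) normalized CPM (-0.52 ± 0.17). The groups were apart in this direction in 0.183% of all genes. Stat2, which carries the interferon signal to the nucleus, stood at 18.5 to 46.4 (median 36.3) against 16.6 to 30.5 (median 25.3) (-0.55 ± 0.20), with 2 h replicate 1 the lowest fed library. Ifit1 was -0.57 ± 0.18 and the antiviral GTPase Mx1 -0.86 ± 0.30. Stat2, Mx1, Ifit2 and Usp18 passed as lower in the 11 libraries, against 6.15% of all genes. With length offsets Stat2 and Usp18 did, against 1.88%. The direction of the list's median held under the scalings and with length offsets, where it was -0.35 without 2 h replicate 1.

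Other immune lists did not lean far. Chemokines and cytokines had 11 of 20 genes positive and a median of 0.07, which turned to -0.11 with length offsets and just below 0 without 0 h replicate 3, and was 0.14 without 2 h replicate 2. Ccl2 and Cxcl12 had the smallest p there, Cxcl12 at 52.6 to 169.9 (median 118.3) against 55.97 to 109.7 (median 82.1) normalized CPM (-0.50 ± 0.23), and Cxcl12 passed as lower in the 11 libraries without 2 h replicate 1. MHC class II had 4 of 7 positive and a median of 0.02, which turned to -0.04 with length offsets, and below 0 without 0 h replicate 3 or 2 h replicate 2. Its regulator Ciita was -0.42 ± 0.34 and H2-DMa 0.13 ± 0.19, and none passed with or without length offsets.

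Clock genes leaned lower. Of 18 tested, 14 had a negative log2FC, with a median of -0.25. With length offsets over the 12 libraries 12 of the 18 were negative and the median was -0.15. Nr1d1, the repressor REV-ERB alpha, stood at 24.8 to 95.5 (median 81.6) normalized CPM in fed and 25.8 to 57.5 (median 39.5) in fasted libraries (-0.89 ± 0.28). Its fed values were high except in 0 h replicate 3, the lowest of all 12, and without that library the log2FC was -1.07. The clock repressor Per1 was -0.63 ± 0.29 (interval -1.24 to -0.01) and its relative Per2 -0.41 ± 0.22. Per2 passed in the 11 libraries without 2 h replicate 1, and not with length offsets. All 12 mice were killed at the same clock time.

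Immediate early genes rested on another library. Of 24 tested 20 had a negative log2FC, with a median of -0.33. Fos stood at 6.98 to 192.3 (median 12.1) normalized CPM in fed and 3.78 to 15.96 (median 7.82) in fasted libraries, and Egr1 at 13.7 to 137.7 (median 18.5) against 11.6 to 20.8 (median 13.9). The high values of Fos, Egr1 and Fosb were all in 0 h replicate 1. With the 12 libraries the log2FCs were -2.29 ± 0.85 for Fos, -1.41 ± 0.55 for Egr1 and -2.14 ± 0.86 for Fosb. Without 0 h replicate 1 they were -0.41, -0.37 and -0.54, and the list's median was -0.15. Cyr61, a matrix protein of the same response, was -0.98 ± 0.30. None of the list passed in edgeR with 2 h replicate 1 left out, while DESeq2 and limma then called Cyr61.

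Glucocorticoid response genes had 13 of 21 negative, so that 38.1% were positive against 48.3% of all genes, and a median of -0.24. At an unadjusted p under 0.05, 2 of the 21 were lower, against 6.95% of all genes. Sgk1, a kinase induced by glucocorticoids, stood at 30.6 to 81.3 (median 46.1) against 21.9 to 45.5 (median 34.2) normalized CPM (-0.64 ± 0.24). Fkbp5, a chaperone of the receptor, was -0.40 ± 0.29 (interval -1.02 to 0.22). The list's median was -0.05 without 2 h replicate 2. Sgk1 passed in the 11 libraries without 2 h replicate 1, and Ddit4 with length offsets, both lower.

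Cholesterol synthesis and uptake had 18 of 23 genes negative and a median of -0.22, which was -0.04 without 0 h replicate 3. Mylip, which marks the LDL receptor for breakdown, stood at 33.5 to 50.6 (median 41.5) against 30.2 to 36.9 (median 33.8) normalized CPM (-0.30 ± 0.11), and Dhcr7, the last enzyme of cholesterol synthesis, was -0.52 ± 0.24. Mylip and Srebf2 passed as lower in the 11 libraries without 2 h replicate 1, and Mylip with length offsets.

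Stress lists were near level. ER chaperones had 14 of 18 genes positive with a median of 0.10, Manf at 38.8 to 61.1 (median 41.1) against 49.9 to 60.8 (median 58.3) normalized CPM (0.31 ± 0.13) and Sdf2l1 0.45 ± 0.18. Heat shock and cold-inducible genes had 11 of 16 positive with a median of 0.14, Dnaja1 0.29 ± 0.13 and Hspa1a -0.86 ± 0.32. The ATF4 integrated stress response had 9 of 16 positive with a median of 0.08, Psat1 of serine synthesis 0.25 ± 0.13 and Ddit3 0.30 ± 0.16, and the median turned to -0.06 with length offsets and 2 h replicate 1 left out. In the 11 libraries Manf, Hspe1, Dnaja1, Nupr1 and Phgdh passed as higher and Hyou1 as lower.

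Tissue structure and growth made up the last lists. Collagens and matrix had 19 of 24 genes negative with a median of -0.18, against -0.04 with length offsets and 2 h replicate 1 left out. These transcripts are long, with a median of 6816 bases. The matrix protease Mmp14 stood at 16.4 to 43.7 (median 35.7) against 12.8 to 38.4 (median 17.9) normalized CPM (-0.73 ± 0.27) and the collagen cross-linker Lox at 53.1 to 77.4 (median 62.5) against 70.6 to 102.6 (median 76.1) (0.35 ± 0.13). Mmp14 and Col4a1 passed as lower in the 11 libraries. Cell cycle genes had 16 of 22 positive with a median of 0.16, though Ccnd1, cyclin D1, was -0.73 ± 0.26 and the mitotic Birc5 0.83 ± 0.36. Ccnd3, cyclin D3, passed as higher with length offsets and 2 h replicate 1 left out. Thermogenic genes had 7 of 11 negative with a median of -0.15, which was -0.25 without 0 h replicate 1. Among them Cox7a1 stood at 2.42 to 8.83 (median 2.95) against 4.89 to 9.17 (median 6.56) (0.80 ± 0.33). Cox7a1 and Cox8b passed as higher without 2 h replicate 1, and Cox7a1 with length offsets.

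**Figure D3:**
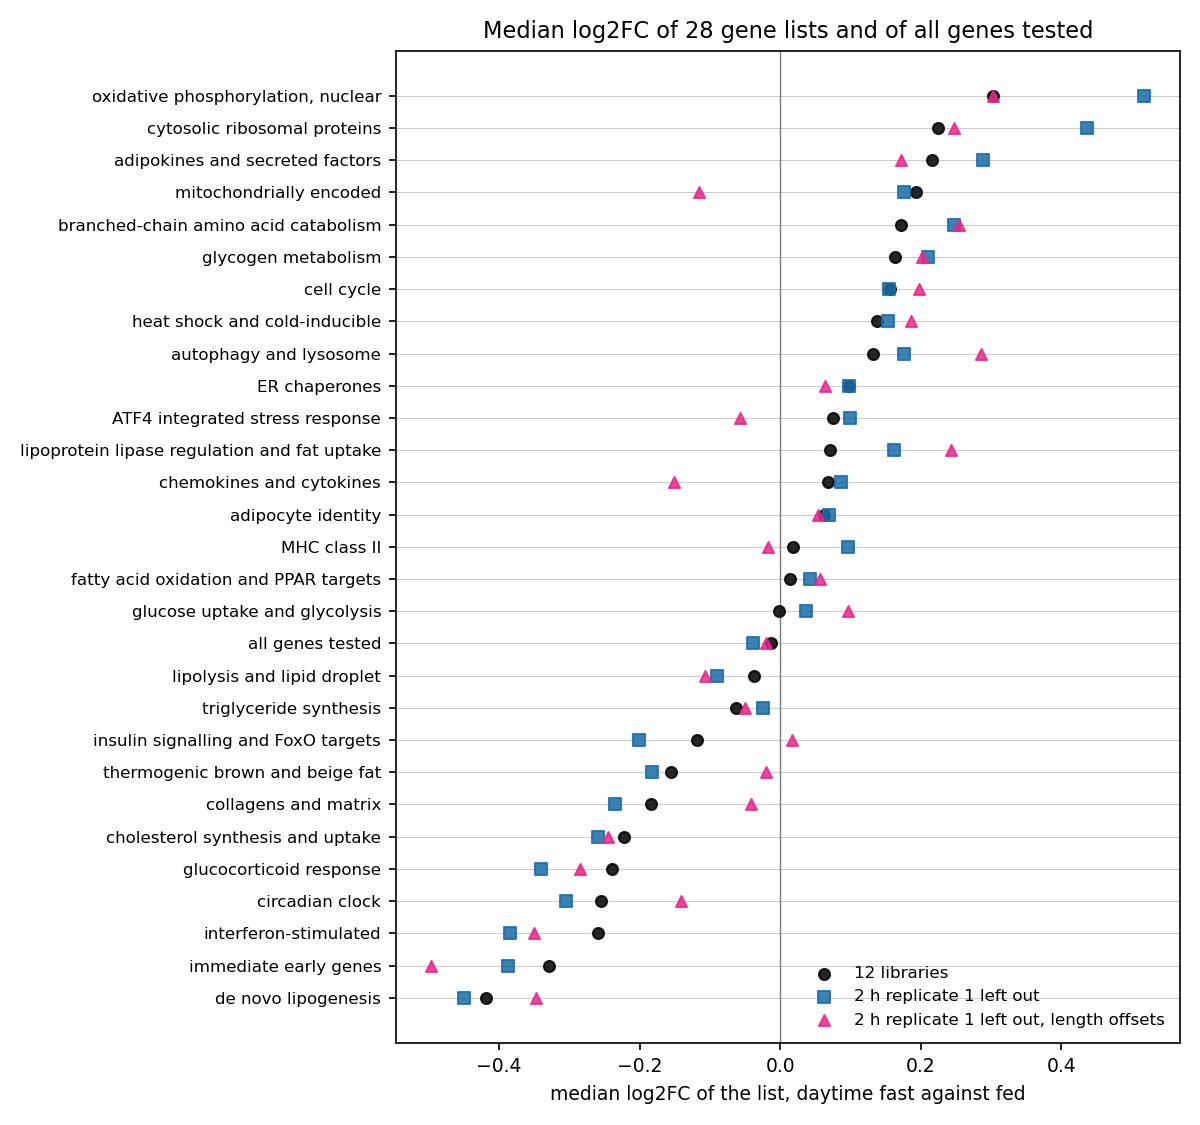
Median log2FC, daytime fast against fed, of each of 28 gene lists and of all genes tested, over the 12 libraries, with 2 h replicate 1 left out, and with length offsets added. Oxidative phosphorylation is highest at 0.30 and de novo lipogenesis lowest at -0.42 over the 12 libraries, and the mitochondrially encoded list changes side with length offsets.

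The durations pooled in each group were compared next. Of 15862 genes, edgeR called 0 (0%) between 12 h and 8 h, with 757 at an unadjusted p under 0.05 and 9 called by DESeq2. It called 0 (0%) between 2 h and 0 h, with 1481 at an unadjusted p under 0.05 and 32 called by DESeq2. With 3 libraries a side, neither count shows that the durations were alike. Fasn was -1.20 ± 0.47 and Lep -0.83 ± 0.37 (SE) at 2 h against 0 h. Without 2 h replicate 1, Pparg, the adipocyte's master transcription factor, passed as lower at 2 h than at 0 h (log2FC -1.40 ± 0.15), and it was named after its value was seen.

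The fasting times differed in their counts against fed. At 8 h edgeR called 0 genes (0%), with 2152 at an unadjusted p under 0.05, and without 2 h replicate 1 it called 2674, of which 446 by more than 2-fold. At 12 h it called 0 genes (0%), with 804 at an unadjusted p under 0.05, and without that library 0 again, with a smallest adjusted p of 0.0901. Without that library, 5525 genes at 8 h and 3271 at 12 h had an unadjusted p under 0.05. DESeq2 called 70 genes at 8 h, 42 of them by more than 2-fold, and 0 at 12 h. Irs2 was -0.54 at 8 h and -0.73 at 12 h, Acacb -1.42 and -0.94, and Ulk2 0.34 and 0.29. Npr3 was 1.13 and 0.49, and Nr1d1 -1.10 and -0.69. These contrasts share their fed libraries, and none of the genes differed between 8 h and 12 h in the test of that difference.

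Against the later fasts of 18 h and 22 h, 1 of 16412 genes passed in edgeR (0.00609%), with 2467 at an unadjusted p under 0.05. It was Chchd10, a protein of the mitochondrial intermembrane space, named after its value was seen. It stood at 15.7 to 51.7 normalized CPM (median 20.7) in the 6 daytime-fasted libraries and 51.3 to 94.9 (median 74.0) in the 6 later ones, which overlapped narrowly, and at 26.3 to 56.1 in fed libraries. The log2FC, later against daytime, was 1.44 ± 0.20 (SE, interval 1.02 to 1.87, adjusted p = 0.0408). All 6 later libraries came from lane L006, and the daytime-fasted libraries of that lane, 12 h replicates 2 and 3, stood at 43.3 and 51.7 against 15.7 to 21.2 in the other 4, so that lane and fasting time cannot be told apart here. The call was lost with most single libraries left out, and 18 h replicate 3 and 22 h replicate 2 held 46046 and 29519 CPM of epididymis markers. Without that pair Chchd10 was 1.32 ± 0.20, and 5 genes passed: Chchd10, Ces1f, Retsat and St3gal6 as higher and Trp53inp2 as lower. DESeq2 called 268 genes by more than 2-fold over all 18 libraries, that pair among them. The epididymis marker Defb42 was called with a log2FC of 9.64, and DESeq2 was not run without the pair.

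The daytime fast was also compared between depots of the same 12 mice, by the interaction of depot and fast. For posterior-subcutaneous fat (psWAT) edgeR called 0 of 17548 genes (0%), with 1150 at an unadjusted p under 0.05, and DESeq2 called 5 by more than 2-fold, named after they were seen: Cfap100 higher, and Lars2, S100a9, Gm24187 and Gm24270 lower in psWAT than in pgWAT. For interscapular brown fat (iBAT) edgeR called 0 of 16636 (0%), with 805 at an unadjusted p under 0.05, and DESeq2 called Slc7a8 as higher. The difference in log2FC, psWAT less pgWAT, was 1.65 ± 1.26 for Lep and 1.04 ± 1.01 for Fasn. For iBAT less pgWAT it was 1.25 ± 0.56 for Irs2. In edgeR none of these differences passed, and the calls of DESeq2 were the only ones.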

How the data were processed

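Messenger RNA of 12 pgWAT libraries was measured as raw read counts per gene, which the authors deposited as 1 table for all 162 libraries. Per the submitters' notes, reads were aligned with TopHat2 2.1.1 to GRCm38.p5 and counted with HTSeq 0.9.1. Genes at the CPM of 10 counts in a library of median size in at least 3 libraries were kept. They were tested with edgeR 4.0.16 in R 4.3.3 (TMM factors, robust quasi-likelihood, Benjamini-Hochberg over all genes), and called at an adjusted p under 0.05. SEs and 95% intervals come from that fit and cover the spread between libraries, while floors of 3 counts cover counting error only. Library measures were compared by 2-sided exact permutation tests. DESeq2 1.42.0 and limma 3.58.1 were run as alternatives, with other scalings, filters, lane, replicate number as block, length offsets (a local trend over 0.3 of the genes) and each library left out. The workflow was tested on simulated data. Transcript length was the union of exons of Gencode M21.

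Named genes were, by rule, the 12 higher and 12 lower called genes of smallest p, with more than 2-fold difference, filled from called genes of any fold and then, as not passed, from the smallest unadjusted p with more than 2-fold difference. Clone names were counted, not named: of 53 higher and 130 lower genes of that kind, 22 and 19 were such names. To these were added up to 4 genes of each of 28 lists by smallest p (4 in some lists and 2 in the rest, a number set after values were seen), and Lep, Adipoq, Pdk4, Fkbp5, Per1, Fasn, Pnpla2 and Lipe. The members and lists were chosen with earlier results of these data known. Promoter motifs were not counted, since edgeR called no gene over the 12 libraries.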

Additional observations from a re-analysis of the deposited data

Results flagged for a closer look

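Values were singled out where the highest or lowest of the 6 libraries in a group lay far from the rest (a gap over 0.625 of the group's range, taken on the log2 scale after adding 0.5 for gene and marker levels and on the plain scale for the other measures). This held for 23 of 256 groups of values, and chance flags about 1 in 20 groups, here 12.8. The library of 2 h replicate 1 gave 8 of the 23. It was highest among fed for Obp1a (2.57 normalized CPM), Rpl32 (133.2), Atp5c1 (805), Cox7a1 (8.83) and the summed markers listed for pancreas acinar cells (38.8 CPM, of which Cela1 37.2 and each of the others at most 0.504), and lowest for Prag1 (4.86), genes with a count (20641) and the length trend (-0.183). The library of 2 h replicate 2 was highest for Col7a1 (10.1), smooth muscle and pericyte markers (5050 CPM) and skeletal muscle markers (190.8 CPM). In 0 h replicate 1, Fos (192.3), Egr1 (137.7) and Fosb (33.7) were highest. In 0 h replicate 3, Fasn was highest (7825) and Nr1d1 (24.8) and Lpin3 (7.83) lowest. In the fasted group, Sdk2 was highest in 12 h replicate 1 (1.96), Birc5 in 8 h replicate 2 (8.45), Mmp14 in 12 h replicate 2 (38.4) and Egr1 in 8 h replicate 1 (20.8). Acadl was lowest in 12 h replicate 2 (255) and Ifit2 in 8 h replicate 2 (10.0). What sets these libraries apart was not tested.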

How the results depend on the processing

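Results were recomputed as the percent of genes tested that were called with more than 2-fold difference, since the genes tested differ between settings. For daytime fast against fed this was 0% with edgeR over the 12 libraries, and 0% with DESeq2 size factors, upper-quartile factors, no filter, filterByExpr, 4 time points or 18 libraries in the fit, 0 h alone as fed, lane as covariate, length offsets, thinning, no fold threshold and an adjusted p under 0.1. It was 0.00630% with DESeq2 (Coro6), 0.410% with limma and quality weights, and 1.24% with lane L005 alone. Of settings chosen after seeing the data, it was 0.287% without both lane L007 libraries, 0.306% with length offsets on lane L005 alone, and 0% without 0 h replicate 1 and 2 h replicate 2 together. With 2 h replicate 1 left out as well it was 0.394% with length offsets, 0.998% with thinning, 1.40% with DESeq2 and 1.02% with limma. Leaving out each library in turn gave 0% to 1.08%, the latter (80 genes higher and 89 lower) without 2 h replicate 1, and 0% without any other. Replicate numbers were also used as a block: the same number joins different mice, and libraries with the same number had a mean correlation of -0.0143 over 18 pairs against 0.00932 over 36 pairs of unlike numbers, so the numbers do not pair the samples. With this replicate block it was 0%, also with 2 h replicate 1 left out, where the smallest adjusted p was 0.0549 and 4475 genes had an unadjusted p under 0.05.

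For the other contrasts DESeq2 gave 0.0378% (12 h against 8 h), 0.151% (2 h against 0 h), 0.265% (8 h against fed), 0% (12 h against fed), 1.63% (later against daytime fast), 0.0285% (psWAT) and 0.00601% (iBAT). Leaving out each library in turn gave 0%, 0% to 0.00636%, 0% to 2.84%, 0% and 0% to 0.116% for the pgWAT contrasts in that order, with the high values of 2 h and 8 h without 2 h replicate 1 and that of the later fast without 18 h replicate 1. It gave 0% for psWAT and iBAT, leaving out each mouse. Later against daytime fast gave 0.0187% without the pair of epididymis-marked libraries (chosen after seeing the data), and Chchd10 alone with the replicate block. In 96 genes 3231 values of log2FC were computed, 2886 of them with the same sign and side of the threshold, 336 newly past it and 9 of the other sign. Those 9 were Adipoq at -0.0206 (length offsets, lane L005), H2-DMa without 8 h replicate 2 (-0.0161 to 0.208 over single libraries left out), and Lipe at 0.0551 (lane), 0.0852 (lane L005), 0.0315 (length offsets), 0.117 (length offsets, 2 h replicate 1 left out), 0.189 (length offsets, lane L005), and without 0 h replicate 2 or 12 h replicate 3 (-0.0874 to 0.0050 over single libraries left out). The cause was not tested.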
